A study of Homo sapiens with 14 samples.

Results

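Bone morphogenetic proteins (BMPs) are secreted signals of the TGF-beta superfamily, and 10 genes of this pathway were followed through 3 days of cartilage pellet culture. They are 6 ligands (BMP2, BMP4, BMP5, BMP6, BMP7 and GDF5), 3 secreted antagonists (NOG, GREM1 and CHRDL2) and 1 type I receptor (BMPR1B). They were chosen by name, by matching their Ensembl identifiers in the tables, and are 10 of the 60587 genes listed and 10 of the 17838 that passed the filter on low counts. Whole pellets grown from the human embryonic stem cell line WA01 (H1) had been kept in chondrogenic medium for 21 days (4 libraries), 30 days (5 libraries) or 45 days (5 libraries). The 3 groups share the line and the kind of medium, and no undifferentiated or unstimulated group was analysed here. WA01 is a single line, and the factors in the medium, the number of pellets per library and whether replicates were separate cultures are not given in the sources used here. The p-values therefore measure the spread between these libraries, which may be technical.

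A BMP dimer brings together type I and type II receptors on the cell surface, and the type I receptor then phosphorylates SMAD1, SMAD5 and SMAD9, which enter the nucleus with SMAD4. NOG, GREM1 and CHRDL2 encode noggin, gremlin and a chordin-like protein, which bind ligands outside the cell and keep them from their receptors. In the growing skeleton BMPs drive mesenchymal condensation and chondrocyte differentiation, GDF5 is known from the forming joint, BMP6 from maturing chondrocytes, and BMPR1B is the type I receptor through which GDF5 acts in digit cartilage.

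On GRCh38, in GENCODE 29, 3 of the 10 genes lie on chromosome 20: BMP2 (6767664 to 6780280, plus strand), GDF5 (35433347 to 35454746, minus) and BMP7 (57168748 to 57266629, minus). BMP6 (7726797 to 7881422, plus) and BMP5 (55753645 to 55875564, minus) lie on chromosome 6. The others are BMP4 on chromosome 14 (53949736 to 53958761, minus), NOG on 17 (56593699 to 56595590, plus), GREM1 on 15 (32717974 to 32745107, plus), CHRDL2 on 11 (74696429 to 74731385, minus) and BMPR1B on 4 (94757968 to 95158448, plus). All 10 are protein coding.

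The starts of 6 of the 10 genes were found in the RefSeq promoter table (GRCh38.p14), and the table held no start for BMP2, BMP7, NOG and CHRDL2. The 250 bases before the start are shown, 5′ to 3′ on the gene's own strand, for the ligand that changed most in each direction (BMP5 lower, BMP6 higher from day 21 to day 45), for GDF5 as the other ligand that rose, and for GREM1, the most abundant antagonist. Capitals mark matches on either strand to 3 motifs that share no bases here: GGCGCC, a palindrome and GC-rich element bound by BMP SMADs; ACAAAG, the core of the SOX motif; and TATAAA, the TATA box.
BMP5, chr6:55875591-55875840, minus strand: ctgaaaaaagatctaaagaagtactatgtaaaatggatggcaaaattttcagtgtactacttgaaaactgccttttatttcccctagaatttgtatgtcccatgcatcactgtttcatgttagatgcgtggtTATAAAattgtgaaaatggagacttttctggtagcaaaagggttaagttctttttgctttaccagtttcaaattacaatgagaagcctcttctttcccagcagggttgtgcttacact
BMP6, chr6:7725849-7726098, plus strand: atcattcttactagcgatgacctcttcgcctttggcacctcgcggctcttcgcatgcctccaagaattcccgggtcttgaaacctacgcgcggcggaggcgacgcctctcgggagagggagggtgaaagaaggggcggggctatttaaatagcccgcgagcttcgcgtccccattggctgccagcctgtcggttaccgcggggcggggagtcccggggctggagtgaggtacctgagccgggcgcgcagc
GDF5, chr20:35454750-35454999, minus strand: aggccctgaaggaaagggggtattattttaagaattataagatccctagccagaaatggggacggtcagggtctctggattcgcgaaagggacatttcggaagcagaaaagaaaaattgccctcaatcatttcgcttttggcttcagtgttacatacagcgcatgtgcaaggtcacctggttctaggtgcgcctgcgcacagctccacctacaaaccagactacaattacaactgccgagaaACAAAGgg
GREM1, chr15:32717754-32718003, plus strand: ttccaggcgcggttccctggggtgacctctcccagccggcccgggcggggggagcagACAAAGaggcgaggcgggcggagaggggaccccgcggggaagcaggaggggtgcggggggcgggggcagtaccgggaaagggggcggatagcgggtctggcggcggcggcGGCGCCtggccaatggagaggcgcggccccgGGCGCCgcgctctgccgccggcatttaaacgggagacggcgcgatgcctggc
Of all 35116 RefSeq windows of this length, 16.4% held GGCGCC, 13.7% held ACAAAG and 10.7% held TATAAA, and the median window had 11 CpG dinucleotides. The BMP5 window held 1 CpG and 1 TATAAA, and 6.06% of windows had fewer CpG. The BMP6 window held 26 CpG and none of the 3 motifs, the GDF5 window 9 CpG and 1 ACAAAG, and the GREM1 window 32 CpG, 2 matches to GGCGCC and 1 to ACAAAG. The last 30 bases of the GREM1 window lie in the GENCODE 29 gene, and the other 3 windows lie outside theirs. The BMP6 window ends at 7726098 while the GENCODE 29 gene starts at 7726797, so RefSeq and GENCODE 29 place its start differently. These matches describe the letters of the windows only.

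The libraries held 18183776 to 33660704 expected counts. Levels below are CPM, read counts relative to the library size after scaling by the trimmed mean of M values (TMM), or TPM, which also divide by transcript length and so allow genes to be compared with each other. The pellets carried the markers of cartilage: the summed level of 8 cartilage genes, all detected, ranged from 39609 to 50906 CPM in day 21 libraries, from 94486 to 230139 in day 30 libraries and from 193492 to 305567 in day 45 libraries. The 5 markers of hypertrophic cartilage summed to 31.9 to 60.5, 328 to 453 and 1589 to 4110 CPM, and the 5 perichondrial and fibrous markers stayed between 22024 and 33858 CPM at every day. POU5F1, NANOG and LIN28A, which define pluripotent cells, were below 1 CPM in every library, as were the endothelial genes PECAM1, CDH5 and VWF and the blood genes PTPRC, HBA1 and HBG1; the other blood marker, CD68, was at 0.76 to 1.47 CPM at day 21 and 45.3 to 64.9 at day 45. The remaining genes of the first 2 of these lists were detected: the pluripotency gene DPPA4 at 12.9 to 16.7 CPM at day 21 and 0.314 to 1.13 at day 45, and the endothelial receptor gene KDR at 23.4 to 32.0 and 7.2 to 10.6 CPM. Libraries that stand apart are day 30 replicates 3 to 5, in which a gene's deviation from its mean fell with its effective length (Spearman's rho -0.52 to -0.43 over genes, against -0.07 to 0.26 in the other 11 libraries). Day 45 replicate 1 is titled day 45 while its treatment label reads 30 days. In such whole-pellet RNA, fewer cells of a type and less RNA per cell cannot be told apart.

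The ligands split and the antagonists moved together. From day 21 to day 30 the antagonists NOG, GREM1 and CHRDL2 and the ligands BMP6 and GDF5 rose, BMP4, BMP5, BMP7 and BMPR1B fell, and BMP2 did not pass the test. That is 5 higher and 4 lower of 10, where 54.4% of all tested genes were called (27.2% higher and 27.1% lower; edgeR's quasi-likelihood test, Benjamini-Hochberg adjusted p below 0.05). From day 30 to day 45, 2 rose (BMP6 and GDF5) and 6 fell (BMP4, BMP5, NOG, GREM1, CHRDL2 and BMPR1B), against a background of 56.3% (27.6% higher and 28.7% lower). Over the whole interval, day 45 against day 21, 5 rose (BMP6, GDF5, NOG, GREM1 and CHRDL2) and 4 fell (BMP4, BMP5, BMP7 and BMPR1B), against 57.7% (27.1% higher and 30.5% lower). Since most tested genes were called in each comparison, the counts alone set these 10 genes little apart. The CPM ranges of day 21 and day 30 did not overlap in 9 genes, 5 higher and 4 lower (background 42.4%, 20% higher and 22.4% lower). Those of day 30 and day 45 did not overlap in 5 genes, 2 higher and 3 lower (38.3%, 19.8% and 18.6%), and those of day 21 and day 45 in all 10, 6 higher and 4 lower (51.5%, 25.3% and 26.2%). The median log2 fold change over the 10 genes was 0.52, -0.50 and 0.76 in the 3 comparisons, and over all tested genes 0.02, -0.04 and -0.05.

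**Figure D1:**
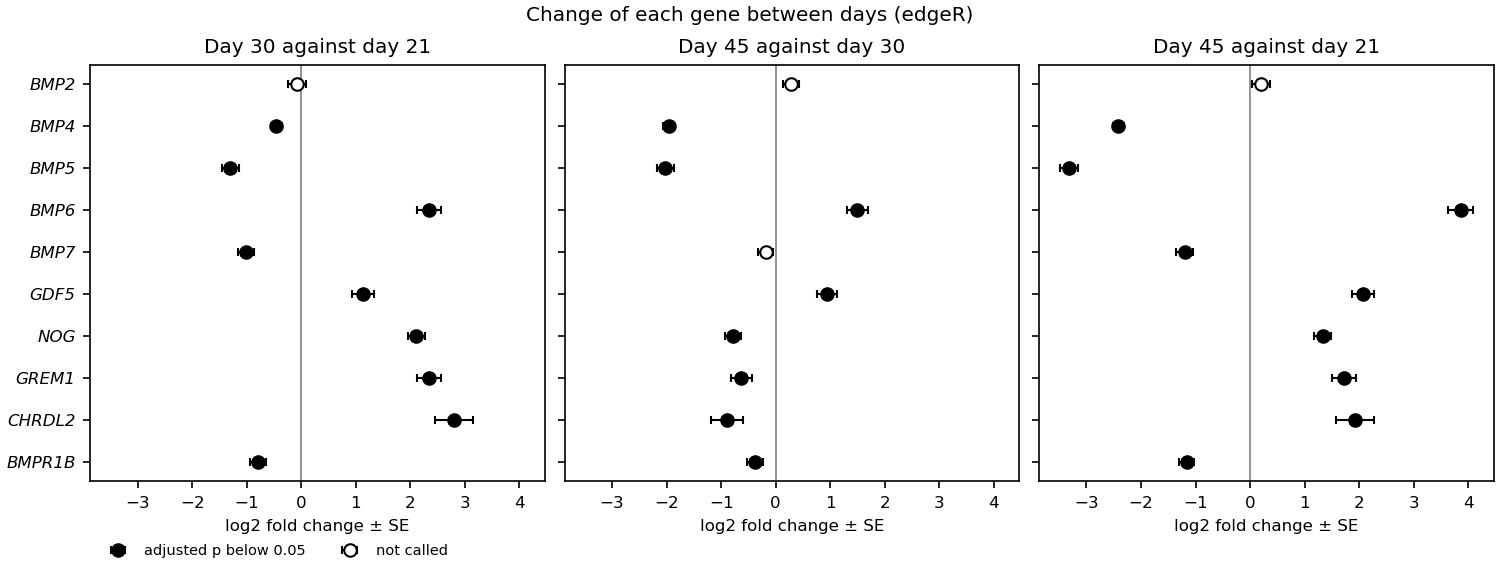
Log2 fold change with its standard error for each of the 10 genes (vertical axis) in the 3 comparisons of days, from the edgeR fit; filled points have an adjusted p below 0.05. BMP4 and BMP5 lie left of 0 in every panel, BMP6 and GDF5 right of 0, and NOG, GREM1 and CHRDL2 change sides between the first panel and the second.

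Placing day 45 replicate 1 at day 30, as its treatment label reads, reduced the genes called between day 30 and day 45 from 8 to 3 (BMP4, BMP5 and NOG). Over all 17838 genes the calls of this comparison fell from 10051 to 6466. In the same setting 8 were called between day 21 and day 30 and 9 between day 21 and day 45 (all genes 8228 and 8638). Leaving the library out instead gave 7, 9 and 9 (all genes 9513, 9608 and 9740 of 17787). With day 30 represented by replicates 1 and 2 only, 10, 8 and 9 genes were called in the comparisons of day 30 with 21, day 45 with 30 and day 45 with 21. Over all 18509 genes of that fit 7645, 7192 and 11413 were called, where the fit of all libraries gave 9696, 10051 and 10284 of 17838.

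Among the ligands that fell, BMP5 changed most. BMP5, the gene mutated in short-ear mice, was at 143, 144, 173 and 150 CPM in day 21 replicates 1 to 4. It was at 65.1, 58.7, 64.2, 65.2 and 56.6 CPM in day 30 replicates 1 to 5, and at 9.85, 16.1, 19.4, 19.3 and 11.5 CPM in day 45 replicates 1 to 5. Every day 21 library was above every day 30 library, and every day 30 library above every day 45 library. The level was 10-fold lower at day 45 than at day 21 (log2 fold change -3.32 ± 0.17 SE, adjusted p = 4.19e-11, edgeR). Both steps passed the test, with log2 fold changes of -1.30 ± 0.16 (adjusted p = 2.68e-06) and then -2.02 ± 0.16 (adjusted p = 4.07e-08). Without day 45 replicate 1, which was the lowest of all, the change from day 21 to day 45 was -3.20.

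BMP4, a ligand of early mesenchyme and of chondrocyte growth, fell mainly late. It was at 26.0, 29.7, 29.8 and 29.4 CPM at day 21, at 19.4, 19.2, 22.6, 21.4 and 22.0 CPM at day 30, and at 5.30, 6.38, 5.51, 5.02 and 4.66 CPM at day 45. The 3 days did not overlap, and the gap between day 30 and day 45 was the wide one. The log2 fold change was -0.46 ± 0.10 from day 21 to day 30 (adjusted p = 0.000837, edgeR) and -1.96 ± 0.10 from day 30 to day 45 (adjusted p = 8.46e-10). With day 45 replicate 1 placed at day 30 the first step was -0.65 and did not pass (adjusted p = 0.057).

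BMP7, known from kidney and limb development and as a cartilage anabolic factor, fell early and then did not pass the test. It was at 28.5, 24.8, 34.1 and 40.6 CPM at day 21, at 17.9, 18.9, 16.1, 12.6 and 13.8 CPM at day 30, and at 14.7, 13.1, 11.8, 14.1 and 16.3 CPM at day 45. All day 21 libraries were above all others, and the day 30 and day 45 libraries were intermingled. The log2 fold change was -1.01 ± 0.15 from day 21 to day 30 (adjusted p = 2e-05, edgeR), -0.18 ± 0.14 from day 30 to day 45 (adjusted p = 0.288) and -1.20 ± 0.15 over both (adjusted p = 2.11e-06). On the log2(TPM + 0.1) scale the first step was -1.63. The antisense gene BMP7-AS1 overlaps BMP7 and received 0 to 1 count per library. Beside the falls of BMP4, BMP5 and BMP7, the summed level of the 3 tendon markers, all detected, was 99.7 to 123, 52.3 to 74.8 and 45.9 to 59.4 CPM at the 3 days, and the part of such cells in these results was not tested.

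BMP6 and GDF5 rose in both intervals. BMP6, a ligand of maturing chondrocytes that also sets hepcidin levels in the liver, was at 1.75, 1.85, 1.55 and 1.76 CPM at day 21. It was at 11.8, 10.9, 8.34, 8.43 and 4.84 CPM at day 30, and at 31.1, 21.8, 21.1, 21.8 and 29.6 CPM at day 45. No library overlapped with another day, and day 30 replicate 5 was the lowest of its day. The level was 14.5-fold higher at day 45 than at day 21 (log2 fold change 3.86 ± 0.23, adjusted p = 3.17e-10, edgeR). The steps were 2.35 ± 0.22 (adjusted p = 2.25e-07) and 1.5 ± 0.19 (adjusted p = 5.27e-06), and with day 45 replicate 1 placed at day 30 the second was 0.90 and did not pass (adjusted p = 0.0587). On log2(TPM + 1), which compresses low levels, the first step was 1.2 and the change from day 21 to day 45 was 2.52 (limma, adjusted p = 7.02e-05 and 2.1e-08). Over the same days the ranges of the hypertrophic marker sum given above did not overlap, while those of the cartilage sum overlapped between day 30 and day 45. The larger part of the hypertrophic sum was PTH1R at days 21 and 30 (20.2 to 49.4 and 228 to 309 CPM). At day 45 it was COL10A1 (1079 to 3159 CPM). In that list ALPL overlapped between days 21 and 30, and SP7 between days 30 and 45. Most of the cartilage sum was COL2A1 (136104 to 235088 CPM at day 45), and MATN1 of the same list was at 690 to 1152 CPM at day 30 and 73.1 to 134 at day 45. ACAN of that list was at 2223 to 3937, 8436 to 25943 and 32284 to 42043 CPM at the 3 days. MATN3 was at 483 to 547, 1309 to 2691 and 2920 to 4365 CPM, so both stepped up without overlap. The other cartilage genes overlapped between day 30 and day 45 or, as MATN1, fell. The part of these cells in the BMP6 result was not tested.

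GDF5, the ligand best known from the joint interzone, was at 3.67, 2.46, 1.99 and 2.44 CPM at day 21, at 6.12, 4.27, 7.73, 5.41 and 5.23 CPM at day 30, and at 13.9, 10.1, 11.8, 9.34 and 10 CPM at day 45. The days did not overlap in CPM, while in TPM day 21 and day 30 did (2.05 to 3.36 and 3.34 to 5.01). GDF5 rose 4.19-fold from day 21 to day 45 (log2 fold change 2.07 ± 0.20, adjusted p = 1.06e-07, edgeR), in steps of 1.13 ± 0.20 (adjusted p = 0.000134) and 0.94 ± 0.18 (adjusted p = 0.000283). With day 45 replicate 1 placed at day 30 the second step was 0.53 and did not pass (adjusted p = 0.129), and without that library it was 0.84 (adjusted p = 0.00115). The first step was 0.50 and the whole change 1.32 on log2(TPM + 1) (limma, adjusted p = 0.0085 and 1.47e-06). The 6 markers of joint interzone and superficial zone did not move as 1 group. Their sum was 809 to 932, 948 to 1345 and 581 to 821 CPM at the 3 days. PRG4 was at 158 to 263, 496 to 882 and 286 to 513 CPM at the 3 days. ERG was at 238 to 292 CPM at day 21 and 133 to 170 at day 45. SFRP2 was at 223 to 251 and 34.9 to 58.2 CPM on those 2 days, and WNT9A at 1.76 to 2.66 and 0.314 to 0.907. FOXC1 overlapped between them (111 to 135 and 106 to 122 CPM). CREB5 was below 1 CPM in every library, and the part of these cells in the GDF5 result was not tested. GDF5OS, which overlaps GDF5 on the other strand, received at most 10.7 counts in a library.

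BMP2, a strong inducer of cartilage and bone, passed no test between days in the edgeR fit of all libraries. It was at 21.8, 21.6, 24.3 and 24.8 CPM at day 21, at 26.1, 31.3, 20.4, 16.2 and 15.8 CPM at day 30, and at 25.6, 27.2, 27.1, 26.9 and 26.3 CPM at day 45. Day 45 libraries were all slightly above day 21 libraries, and day 30 spread to either side of both. Day 30 replicates 3 to 5, the libraries with the length trend, were its 3 lowest. The log2 fold change was -0.08 ± 0.16 (adjusted p = 0.7, edgeR), 0.28 ± 0.15 (adjusted p = 0.122) and 0.20 ± 0.16 (adjusted p = 0.285) in the comparisons of day 30 with 21, day 45 with 30 and day 45 with 21. The direction depended on the scale: in TPM every day 45 library (10.9 to 12.8) was below every day 21 library (12.9 to 16.1), and the change was -0.22 on log2(TPM + 1). With replicates 1 and 2 as the only day 30 libraries, BMP2 was higher at day 30 than at day 21 (log2 fold change 0.30, adjusted p = 0.0271). On log2(TPM + 1) and log2(TPM + 0.1) it was lower at day 30 than at day 21 (-0.53 and -0.58, adjusted p = 0.0282 for both, limma). It was higher at day 45 than at day 30 without day 30 replicate 2 (0.44, adjusted p = 0.00737, edgeR) and with voom and sample weights (0.48, adjusted p = 0.0027), and with voom also higher at day 45 than at day 21 (0.26, adjusted p = 0.0259). TPM lowered the median of all genes by 0.339 on the log2(TPM + 1) scale between day 21 and day 45 and by 0.348 between day 21 and day 30.

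**Figure D2:**
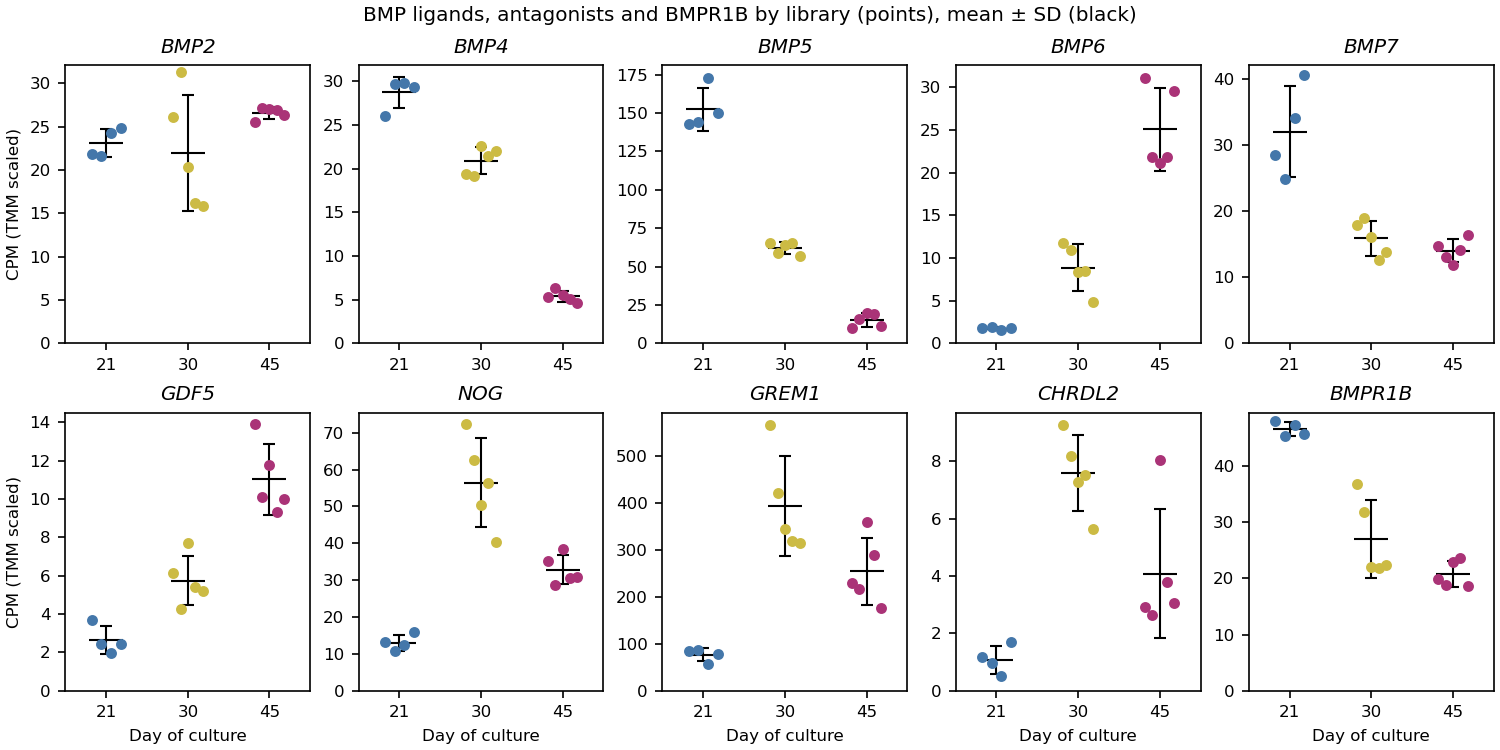
TMM-scaled CPM (vertical axes, from 0) of the 10 genes against the day of culture; each point is a library and the black lines are the mean and SD of 4, 5 and 5 libraries. BMP5 steps down from 143 to 173 CPM at day 21 to 9.85 to 19.4 at day 45, BMP6 steps up, and NOG, GREM1 and CHRDL2 are highest at day 30.

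All 3 antagonists were low at day 21, highest at day 30 and intermediate at day 45. GREM1, which encodes gremlin, an antagonist of BMP2, BMP4 and BMP7, was at 85.5, 87.0, 57.7 and 77.4 CPM at day 21. It was at 566, 421, 344, 319 and 315 CPM at day 30 and at 230, 216, 359, 289 and 177 CPM at day 45. Days 30 and 45 were both clear of day 21 but overlapped each other, since day 45 replicate 3 was above 3 day 30 libraries. GREM1 rose 5.11-fold from day 21 to day 30 (log2 fold change 2.35 ± 0.22, adjusted p = 2.1e-07, edgeR) and was 3.3-fold higher at day 45 than at day 21 (1.72 ± 0.22, adjusted p = 2.95e-06). The fall between day 30 and day 45 was smaller (-0.63 ± 0.19, adjusted p = 0.0109). It did not pass on log2(TPM + 1) (-0.44, adjusted p = 0.112), with no filter on low counts (-0.60, adjusted p = 0.0583) or with day 45 replicate 1 at day 30 (-0.49, adjusted p = 0.109). The opposite-strand gene AC090877.2 at the start of GREM1 received 5.1 to 92.0 counts per library, and the library kit does not mark strand.

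NOG, which encodes noggin, a high-affinity antagonist needed for joint formation, was at 13.3, 10.7, 12.3 and 15.9 CPM at day 21. It was at 72.3, 62.5, 50.5, 56.3 and 40.4 CPM at day 30 and at 35.2, 28.8, 38.5, 30.5 and 31.0 CPM at day 45. The 3 days did not overlap in CPM. NOG rose 4.32-fold from day 21 to day 30 (log2 fold change 2.11 ± 0.16, adjusted p = 1.56e-08, edgeR) and fell 1.72-fold from day 30 to day 45 (-0.78 ± 0.14, adjusted p = 0.000186), ending 2.51-fold above day 21 (1.33 ± 0.16, adjusted p = 1.2e-06). In TPM the ranges of day 30 (33.2 to 69.6) and day 45 (26.3 to 33.5) touched in 1 library of each day.

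CHRDL2, a chordin-like antagonist found in cartilage, had the lowest levels of the 3. It was at 1.17, 0.962, 0.517 and 1.70 CPM at day 21, at 9.26, 8.20, 7.27, 7.54 and 5.65 CPM at day 30, and at 2.94, 2.63, 8.04, 3.78 and 3.05 CPM at day 45. Day 21 was below all other libraries, and day 45 was below day 30 except for replicate 3, which lay among the day 30 values. CHRDL2 rose 6.99-fold from day 21 to day 30 (log2 fold change 2.8 ± 0.35, adjusted p = 4.84e-06, edgeR). The later change was -0.89 ± 0.30 (adjusted p = 0.0172). This later change did not pass with no low-count filter (-0.85, adjusted p = 0.0652), with an offset for effective length (-0.71, adjusted p = 0.0639) or with day 45 replicate 1 at day 30 (-0.63, adjusted p = 0.18). Day 45 replicate 3 was the highest day 45 library for all 3 antagonists. The first steps of GREM1 and CHRDL2 were 1.71 and 1.88 on log2(TPM + 1), and the change of CHRDL2 from day 21 to day 45 was 1.02 in place of 1.92 (limma, adjusted p = 1.38e-05, 1.07e-05 and 0.00229).

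BMPR1B was at 47.9, 45.2, 47.2 and 45.7 CPM at day 21, at 36.7, 31.8, 22.0, 21.9 and 22.3 CPM at day 30, and at 19.8, 18.8, 22.8, 23.6 and 18.7 CPM at day 45. Day 21 was above all other libraries, and day 30 replicates 3 to 5 lay among the day 45 values while replicates 1 and 2 did not. The receptor gene was 2.24-fold lower at day 45 than at day 21 (log2 fold change -1.16 ± 0.14, adjusted p = 1.99e-06, edgeR). The step from day 21 to day 30 was -0.79 ± 0.14 (adjusted p = 0.000172), and the step from day 30 to day 45 was -0.38 ± 0.14 (adjusted p = 0.0267). Which step was larger depended on the day 30 libraries: the first was -1.62 on log2(TPM + 1), but with replicates 1 and 2 alone at day 30 the first was -0.45 and the later one -0.74 (adjusted p = 0.00418 and 7.97e-05). In other fits the later step did not pass: when day 30 replicate 1 or 2 was left out (adjusted p = 0.0924 and 0.0646), or day 45 replicate 1, 2 or 5 (adjusted p = 0.0543, 0.0631 and 0.0639). With day 45 replicate 1 at day 30 it was -0.29 (adjusted p = 0.153), with voom and sample weights -0.24 (adjusted p = 0.0904), and on log2(TPM + 1) the direction turned (0.12, adjusted p = 0.66). The effective length of BMPR1B in the tables ranged from 2649 to 4865 bases between libraries, so its TPM also moves with the transcript forms assigned to it.

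Whether the change of a gene differed between the intervals was tested as the later log2 change minus the earlier one, and was called in 7 genes, 1 positive and 6 negative, at a background of 52.7% of genes called (25.3% positive and 27.5% negative). It was negative for the 3 antagonists, at -2.89 ± 0.24 for NOG (adjusted p = 1.76e-07, edgeR), -2.98 ± 0.33 for GREM1 (adjusted p = 2.95e-06) and -3.69 ± 0.52 for CHRDL2 (adjusted p = 2.55e-05): each rose in the first interval and fell in the second. These 3 differences passed in every alternative run, with the smallest sizes on log2(TPM + 1) (-2.29, -2.15 and -2.73). A rise followed by a level course also gives a negative difference, so this does not test the fall. The intervals also differ in length, day 21 to day 30 and day 30 to day 45, and the changes were not divided by days. The difference therefore compares whole changes, not rates, and a change at a steady rate also gives a difference other than 0. The falls of GREM1 and CHRDL2 themselves did not pass in the alternatives given above. BMP4 fell more in the later interval (-1.5 ± 0.17, adjusted p = 2.38e-06), though on log2(TPM + 1) the difference was -0.57 and with day 45 replicate 1 at day 30 it did not pass (-1.11, adjusted p = 0.0658). BMP7 had the reverse order (0.83 ± 0.25, adjusted p = 0.0106), which did not pass with day 30 replicates 1 and 2 alone (0.40, adjusted p = 0.355). BMP5 (-0.73, adjusted p = 0.0261) did not pass in 7 alternatives. It was -0.17 both on log2(TPM + 1) (adjusted p = 0.647) and with day 45 replicate 1 at day 30 (adjusted p = 0.84). The adjusted p was 0.472 on log2(TPM + 0.1), 0.173 with day 30 replicates 1 and 2 only, 0.0631 with no filter, and 0.0522 and 0.0544 without day 30 replicate 3 or 4. BMP6 (-0.85, adjusted p = 0.0448) did not pass in 16 of 25 alternatives, 11 of which left out a library. BMP2, GDF5 and BMPR1B were not called (adjusted p = 0.273, 0.634 and 0.161). BMPR1B was called as positive on log2(TPM + 1) (1.74, adjusted p = 0.000732), with voom (0.70, adjusted p = 0.00867) and without day 30 replicate 1 (0.69, adjusted p = 0.0113). BMP2 was called as positive on log2(TPM + 1) (0.84, adjusted p = 0.0405), with voom (0.69, adjusted p = 0.0135) and without day 30 replicate 2 (0.67, adjusted p = 0.0204).

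In TPM, BMP5 ranked first at day 21 and an antagonist ranked first later. At day 21 BMP5 averaged 83.3 TPM, clear of GREM1 at 46.8 and BMP4 at 45.4, whose ranges overlapped; BMPR1B (32.1) was clear of BMP4, and from it down to BMP7 (23.8), NOG (15.7) and BMP2 (14.2) each gene overlapped the next. Clear of BMP2, GDF5 (2.49), CHRDL2 (1.38) and BMP6 (0.99) were lowest and overlapped in that order. At day 30 GREM1 (162) and NOG (50.1) were each clear of the next gene, BMP5 (24.6) and BMP4 (22.4) overlapped, and below BMP4 came BMPR1B, BMP2, CHRDL2, BMP7, GDF5 and BMP6, between 10.4 and 3.77 and overlapping from one to the next. At day 45 GREM1 (116) and NOG (29) were each clear of the next gene, and the other 8 lay between 12 (BMP2) and 4 (CHRDL2) with every neighbour in the order overlapping. BMP6 and CHRDL2, the lowest pair at day 21, ended at 10.5 and 4 TPM, and BMP5, the highest, at 6.13.

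The 6 ligands together summed to 152, 161, 193 and 175 TPM at day 21, to 83.7, 85.5, 72.2, 61.6 and 59.3 TPM at day 30, and to 51.4, 51.5, 47.9, 51.7 and 49.1 TPM at day 45. The 3 antagonists summed to 68.4, 68.1, 52.5 and 66.4, then to 342, 260, 180, 165 and 154, and then to 132, 130, 201, 169 and 114 TPM. The days did not overlap for the ligands, and for the antagonists days 30 and 45 overlapped. TPM lowered the median of all genes by 0.348 and 0.339 on the log2(TPM + 1) scale from day 21 to days 30 and 45. The sums were not corrected for this. The ratio of antagonist to ligand TPM, which cancels the scaling of a library, was 0.382 ± 0.0782 over the 4 libraries of day 21 (mean ± SD), 2.98 ± 0.654 over the 5 of day 30 and 2.98 ± 0.765 over the 5 of day 45. Transcripts of these 3 antagonists were thus fewer than those of the 6 ligands in all 4 day 21 libraries (0.273 to 0.451). They were more numerous in all 10 later ones (2.33 to 4.19). The mean ratio at day 30 was 3.57 over replicates 1 and 2 and 2.91 with day 45 replicate 1 included. GREM1 made up 72.9%, 73.2% and 77.4% of the antagonist TPM at the 3 days (SD 5.20, 3.33 and 3.05). These sums hold only the named genes and are transcript levels, not protein. Effective lengths varied between libraries for BMP4 (996 to 1489 bases), BMP7 (2371 to 3692), GREM1 (3109 to 3925) and CHRDL2 (1243 to 1604). The TPM of these genes, and so the sums, also move with the transcript forms assigned. Genes left out include FSTL1, of the other antagonists and modulators described below, at 949, 430 and 605 TPM on average at the 3 days. The ligand GDF10, also left out, was at 18, 35.3 and 65.4 TPM. Which sum is larger therefore depends on the genes chosen.

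**Figure D3:**
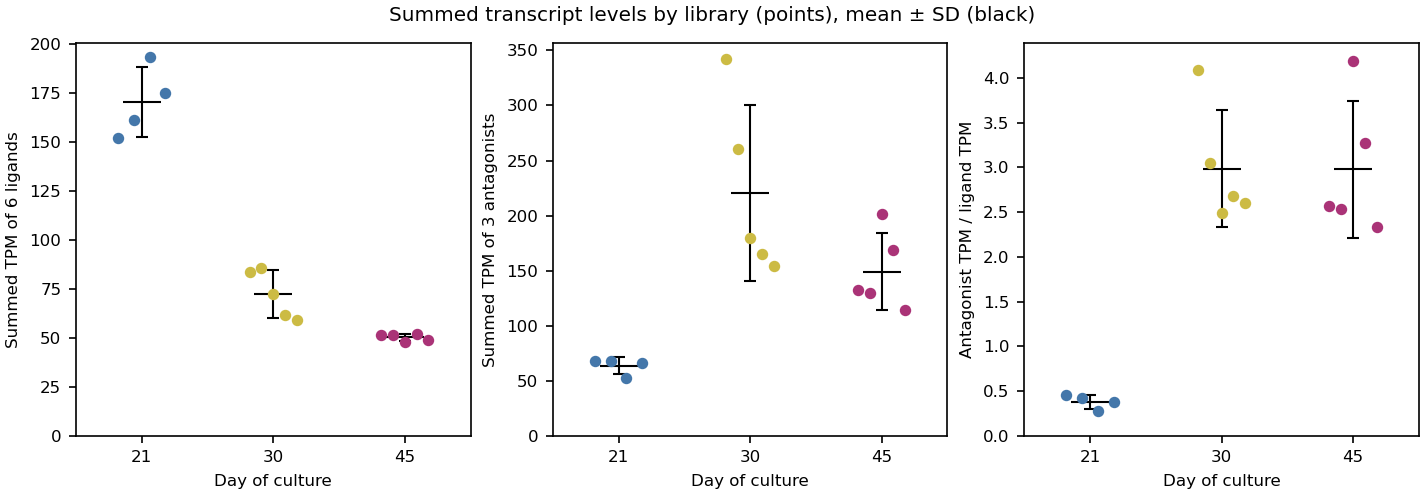
Summed TPM of the 6 ligands (left), of the 3 antagonists (middle) and their ratio (right) against the day of culture; points are libraries and black lines the mean and SD of 4, 5 and 5 libraries. The ratio lies between 0.273 and 0.451 at day 21 and between 2.33 and 4.19 at days 30 and 45.

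Among the 6 ligands summed, the make-up changed from a pool led by BMP5 to a spread over several ligands. GDF10, a ligand outside this sum that is described below, averaged 65.4 TPM at day 45, above the 50.3 TPM of the 6 together. BMP5 made up 48.9% ± 3.20 of ligand TPM in day 21 libraries (mean ± SD, n = 4), 34.3% ± 2.83 in those of day 30 and 12.2% ± 3.86 in those of day 45 (n = 5 each). BMP6 went from 0.587% ± 0.0749 through 5.06% ± 1.26 to 20.9% ± 3.42, and GDF5 from 1.5% ± 0.501 through 5.51% ± 1.08 to 15.3% ± 2.06. BMP2, whose CPM passed no test between days in the edgeR fit of all libraries, had a share of 8.36% ± 0.103, 13.5% ± 3.29 and 23.9% ± 1.5 as the sum around it fell. BMP4 held 26.8% ± 3.16, 31.2% ± 2.96 and 13.7% ± 1.30, and BMP7 13.9% ± 3.62, 10.4% ± 2.05 and 14.1% ± 2.17. The 5 day 45 libraries gave BMP2 the largest or second largest share in each case, with BMP6 ahead of it in replicates 1 and 5.

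**Figure D4:**
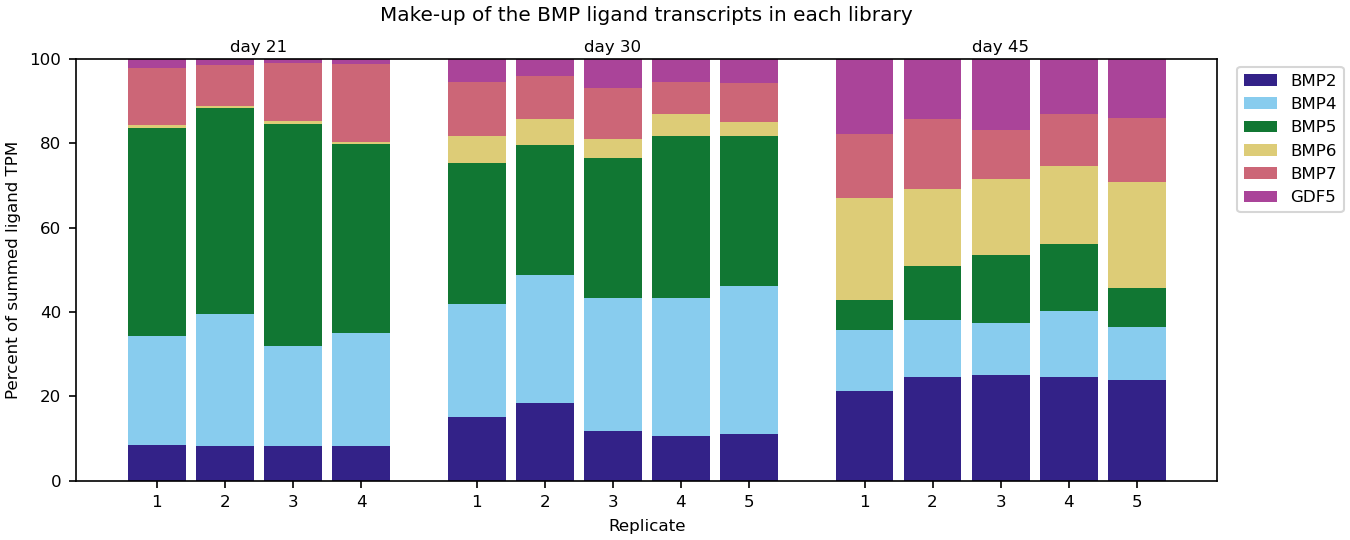
Percent of the summed ligand TPM held by each of the 6 ligands (stacked bars, 0 to 100) in every library, grouped by day. BMP5 holds 44.8% to 52.6% of the bar at day 21 and 7.24% to 15.9% at day 45, while BMP6 grows from under 1% to between 18.2% and 25.1%.

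Likeness between genes was measured as the root mean square difference over the 14 libraries of log2 CPM, each gene centred on its own mean, so that 0 is the same course. Points of 1 library share its depth and scaling. Among the 10 genes the closest pairs were BMP7 with BMPR1B (0.25), NOG with GREM1 (0.30), GREM1 with CHRDL2 (0.38) and BMP4 with BMP5 (0.48), and the furthest were BMP5 and BMP6 (2.89). Over all tested genes with at least 10 CPM at their highest day, BMP6 was most like LPL (0.20), ISM1 and ACAN, the last of which encodes the main cartilage proteoglycan. NOG was most like EXTL1 (0.22), DOK5 and COL9A1, a chain of the cartilage collagen IX. GREM1 was most like C1QTNF3, NOG and EXTL1, and CHRDL2 most like S100A1, GREM1 and CHAD, a cartilage leucine-rich protein. BMP4 was most like C1QTNF1 (0.15), IL11RA and SFRP2, a WNT modulator, and the genes most like BMP5 included GAL3ST3 (0.29) and GPC3, a cell surface proteoglycan. GDF5 was most like JUNB (0.19), HTRA3 and TMEM54, BMP7 most like CYS1, UBXN2B and SYT11, BMPR1B most like PLEKHA5, RAVER2 and CYYR1, and the genes most like BMP2 included TAB2 and MFHAS1.

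Of 11 other BMP and GDF ligands 7 were tested, and from day 21 to day 45 1 rose and 3 fell (all genes 27.1% higher and 30.5% lower). BMP10, BMP15, GDF2 and GDF3 did not pass the filter. The riser was GDF10, also called BMP3B, at 18 ± 7.25 TPM in day 21 libraries (mean ± SD, n = 4), 35.3 ± 8.76 in those of day 30 and 65.4 ± 9.44 in those of day 45 (n = 5 each), a log2 fold change of 2.30 ± 0.26 (adjusted p = 1.83e-06, edgeR). At day 45 its lowest library (55.1 TPM) was above the highest library of any of the 6 ligands described above, which was BMP2 at 12.8 TPM. That library was also above the highest sum of the 6 ligands at day 45 (51.7 TPM). BMP3, which counters BMP signalling, fell from 1.21 ± 0.397 to 0.01 ± 0.01 TPM (log2 fold change -6.29 ± 0.48, adjusted p = 6.04e-09), and GDF11, of the activin-like branch, from 10.6 ± 0.741 to 3.92 ± 0.605 TPM (-1.16, adjusted p = 1.41e-06). GDF6, the near relative of GDF5, averaged at most 0.203 TPM at any day. The median log2 fold change of day 45 against day 21 was -1.10 over these ligands, where it was -0.05 over all genes. This median is the value of GDF6, which was not called (adjusted p = 0.0633, edgeR). On log2(TPM + 1) the 2 medians were -0.39 and -0.339. In the counts the median was 0.26 over the other antagonists, -0.33 over the other receptors, -0.04 over the SMADs and their regulators, 0.23 over the BMP-induced genes and -0.16 over the proteases described next.

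Of 17 other secreted antagonists and modulators 12 were tested, and 5 rose and 2 fell from day 21 to day 45, where 27.1% of all genes rose and 30.5% fell. These counts were 3 and 3 on log2(TPM + 1), and the median log2 fold change of these genes was -0.09 in place of 0.26. CHRDL1, the paralogue of CHRDL2, did not share its peak at day 30: it was at 6.95 ± 0.47, 9.99 ± 3.23 and 19.9 ± 4.78 TPM, and rose in both intervals (log2 fold changes 1.12 and 0.89, adjusted p = 5.51e-05 and 0.00022, edgeR). FSTL3, which binds activins, rose from 14.2 ± 3.45 to 25 ± 5.04 TPM (1.57, adjusted p = 2.51e-06). SOSTDC1, an antagonist also acting on WNT signals, fell from 2.60 ± 0.248 to 0.242 ± 0.147 TPM (-3.05, adjusted p = 7.03e-07). CHRD, the gene of chordin, was at 3.67, 2.69 and 2.88 TPM on average and was not called.

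Of 13 other receptors and co-receptors 12 were tested, and 3 rose and 6 fell from day 21 to day 45 (all genes 27.1% higher and 30.5% lower). None rose and 6 fell on log2(TPM + 1), so that ROR2 and ACVR1, named below as higher, were not called higher on that scale. BMPR1A, the paralogue of BMPR1B, followed it: 36.6 ± 4.72 TPM at day 21, 15.8 ± 4.61 at day 30 and 17.4 ± 2.91 at day 45, with a log2 fold change of -0.58 (adjusted p = 0.00064, edgeR) in the first interval and -0.05 (adjusted p = 0.733) in the second. The ratio of BMPR1B to BMPR1A TPM was 0.891 ± 0.160 at day 21, 0.638 ± 0.107 at day 30 and 0.627 ± 0.113 at day 45, and the ranges of the 3 days overlapped. BMPR2, the type II receptor, was at 59.2 ± 5.22, 14 ± 6.37 and 35.5 ± 4.60 TPM, with log2 fold changes of -1.44 and then 0.88 (adjusted p = 8.76e-06 and 0.00064). It has a long transcript (mean effective length 6765 bases), and day 30 replicates 3 to 5 carry the length trend given above. ACVRL1 and ENG, receptor and co-receptor best known from vessels, fell by 2.01 and 0.74 on the log2 scale from day 21 to day 45, and ROR2, a WNT receptor that can bind BMPR1B, rose by 0.82 (adjusted p = 2.85e-08, 0.000114 and 0.000201). The other type I receptor, ACVR1, rose by 0.36 (adjusted p = 0.00267).

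Inside the cell, 8 of 12 SMADs and SMAD regulators fell from day 21 to day 30 and 1 rose, and from day 30 to day 45 10 rose and 1 fell. Of all genes 27.1% fell and 27.2% rose in the first interval, and 27.6% rose and 28.7% fell in the second. With day 30 replicates 1 and 2 alone the counts were 6 lower and 2 higher, then 4 higher and 1 lower, in a smaller fit in which 7192 in place of 10051 of all genes were called in the second interval. With the effective length offset they were 6 lower and 2 higher, then 8 higher and 1 lower. From day 21 to day 45 the list showed 4 higher and 2 lower, and on log2(TPM + 1) the balance was the opposite, with 1 higher and 6 lower. In the counts TOB1, which restrains BMP SMADs, rose by 1.37 and SMAD9 by 0.88 on the log2 scale, and CTDSP1, a SMAD phosphatase, fell by 0.49 (adjusted p = 1.45e-07, 0.000646 and 7.84e-05, edgeR). Of 12 genes that BMP signals are known to induce, 6 rose, 2 fell and 4 were not called from day 21 to day 45. Of all genes 27.1% rose and 30.5% fell over these days. ID2 rose from 77.9 ± 8.92 TPM at day 21 to 87.0 ± 8.83 at day 30 and 212 ± 25 at day 45 (log2 fold change 1.85 ± 0.10 over both intervals, adjusted p = 1.65e-10). ATOH8, a BMP target known from hepcidin control, rose by 1.39 (adjusted p = 9.71e-09). ID4 had the course of the antagonists, at 11.1 ± 1.14, 22.3 ± 5.07 and 16 ± 2.94 TPM, with log2 fold changes of 1.45 and then -0.48 (adjusted p = 3.12e-07 and 0.00497). On log2(TPM + 1) the 12 induced genes gave 3 higher and 4 lower from day 21 to day 45, in place of 6 and 2.

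The proteases that release BMPs or cut their antagonists were also measured. Of 7 genes 3 rose and 3 fell from day 21 to day 45 (all genes 27.1% higher and 30.5% lower). FURIN, which cleaves BMP precursors, was at 80.7 ± 3.13, 63.0 ± 16.5 and 129 ± 13.4 TPM at the 3 days and rose by 1.13 on the log2 scale over both intervals (adjusted p = 1.39e-06, edgeR). TLL1 and TLL2, proteases of the tolloid family, were at 1.92 and 1.53 TPM at day 21 and at 0.224 and 0.096 TPM at day 45, with log2 fold changes of -2.79 and -4.11 (adjusted p = 1.33e-06 and 9.23e-07).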

How the data were processed

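RNA from 14 samples of whole pellets was extracted with the RNeasy micro kit and made into TruSeq RNA v2 libraries, per the labels' protocols; this kit does not mark strand. Per the submitters' processing notes, STAR 2.4.2a and RSEM 1.2.25 were used on GRCh38, and the gene annotation behind the tables is not named there. The authors deposited, per gene and library, an expected count, a TPM value and an effective length in bases, per the file headers. Expected counts were rounded to whole numbers.

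Genes were kept by filterByExpr by day, scaled by TMM and fitted together, 14 libraries with 3 day means (edgeR 4.0.16, R 4.3.3, robust quasi-likelihood). The call was an adjusted p below 0.05 (Benjamini-Hochberg over 17838 genes). The SE is the log2 fold change divided by the square root of F. The fit was tested on simulated counts. CPM values were computed from the deposited counts, and log2 of TPM plus 1 or 0.1 was used in limma 3.58.1. Of the identifiers, 60333 had a symbol and 58400 were in GENCODE 29, which gave overlapping genes.

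The 10 members and the 6 pathway and 11 marker lists were chosen with earlier results of these data known. Named by rule were the members, per pathway list the 3 tested genes with the smallest adjusted p for day 45 against day 21 plus BMPR1A, BMPR2, ACVR1, CHRD, CHRDL1 and GDF6, and the 3 genes most like each member. A few of the genes so chosen are left out of the text. Marker genes are named from their lists.

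The alternatives comprised edgeR with the size factors of DESeq2, DESeq2 1.42.0, limma on both TPM scales, voom with sample weights, no filter, a filter of 1 CPM in 4 libraries, a replicate block, the label conflict, day 30 replicates 1 and 2 only, an effective length offset, and leaving out each library. Alternatives for the pathway lists and TPM sums were added after seeing the data.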

Additional observations from a re-analysis of the deposited data

Results flagged for a closer look

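In 36 groups of 4 or 5 libraries examined, 2 held a library far from the others, where chance gives about 1 in 20 groups. BMP4 was at 26.0 CPM in day 21 replicate 1 and at 29.4 to 29.8 CPM in the other day 21 libraries, a gap of 0.88 of the group's range. CHRDL2 was at 8.04 CPM in day 45 replicate 3 and at 2.63 to 3.78 CPM in the other day 45 libraries, a gap of 0.786 of the range. GREM1 and NOG were also highest in that library among the day 45 libraries, at 359 and 38.5 CPM.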

How the results depend on the processing

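The counts of genes called stayed within 1.5 times under every alternative except 1: with day 45 replicate 1 placed at day 30, 3 genes in place of 8 were called between day 30 and day 45. Leaving out 1 library at a time gave 9 to 9, 7 to 8, 9 to 9 and 5 to 7 genes (day 30 against 21, day 45 against 30, day 45 against 21, later minus earlier change). Directions turned in 16 values. For BMP2 the log2 fold change of day 30 against day 21 was 0.30 with day 30 replicates 1 and 2 only, 0.12 with the length offset, and 0.02 without day 30 replicate 4 or 5 (-0.23 to 0.02 over all libraries left out in turn). With day 30 replicates 1 and 2 only, BMP2 gave -0.12 for day 45 against day 30, and the later minus the earlier change was -0.42 for BMP2, 0.08 for GDF5 and -0.29 for BMPR1B. On log2(TPM + 1) and log2(TPM + 0.1), BMPR1B gave 0.12 and 0.13 for day 45 against day 30, BMP2 gave -0.22 and -0.24 for day 45 against day 21, and the later minus the earlier change was 0.32 and 0.31 for GDF5. It was 0.11 for BMP6 on log2(TPM + 1), and 0.06 for GDF5 without day 30 replicate 3 (-0.38 to 0.06 over all libraries left out in turn). The cause was not tested. Over all genes, 10051 were called between day 30 and day 45 and 6466 with day 45 replicate 1 at day 30; for the later minus the earlier change 9404 were called and 5659 with day 30 replicates 1 and 2 only. On log2(TPM + 1) all genes split into 1788 higher and 9032 lower at day 30 against day 21, and 2140 and 8720 at day 45 against day 21, where the counts gave 4858 and 4838, and 4836 and 5448. A replicate block was also run, although the labels do not say that the numbers pair the libraries. Correlations of same-numbered libraries were -0.251 to 0.116 in 13 pairs, and 1 of 14 libraries was most like its own number. The block gave 9, 8, 9 and 6 genes. Only BMP6 in the later minus the earlier change then did not pass (-0.84, adjusted p = 0.0554).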
